A study of Mus musculus with 6 samples.

Results

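The genes compared were 10 that encode surface proteins used to sort endothelial cells (EC) and hematopoietic progenitors: Cd200, Cd34, Eng, Ly6a, Ly6c1, Prom1, Mcam, Emcn, Spn and Itga2b. They were taken by symbol from the 54429 genes of the deposited count table. All 10 had counts, and all 10 passed the filter on low counts, which left 16065 genes to be tested. Both groups were primary aortic EC of adult WT C57BL/6 mice carrying a lentiviral vector, either the Meis1-OE vector or the YFP-CTRL vector, and each group had 3 RNA-seq libraries. Cells were transduced for 48 h, sorted for YFP, CD31 and VEC at 72 h, re-plated and grown to confluency before RNA was taken, so none of the 10 proteins was part of the gate. The EC were bought as primary cells and Meis1 was driven by a vector, so these are cultured adult cells and not embryonic endothelium. The study states that the replicates were independent without saying whether they came from separate animals, so p-values measure the spread between these cultures. What was measured is RNA in bulk, and fewer cells of a type cannot be told apart from less RNA per cell.

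In the embryo, blood stem and progenitor cells arise from endothelium of the dorsal aorta, and surface antigens are the means of separating the steps. CD41 (Itga2b) and CD43 (Spn) appear as cells commit to blood. Endoglin, endomucin and CD146 (Mcam) are carried by vascular endothelium, whereas CD34 and Sca-1 (Ly6a) are shared by endothelium and blood progenitors. CD200 is an endothelial antigen that the study tried as a way of telling prehemogenic endothelium from hemogenic endothelium.

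The RNA of 2 of these genes changed in Meis1-OE EC. Cd200 was 4.45-fold higher and Cd34 was 1.60-fold lower, each without overlap between the groups. Mcam was lower and Prom1 higher in Meis1-OE EC by values that did not pass the threshold. The 6 others, among them the blood antigens Spn and Itga2b, did not pass it either. The threshold was 0.05 for p-values of edgeR's quasi-likelihood test, adjusted by Benjamini-Hochberg over all 16065 genes. At this threshold 1 of the 10 genes was higher and 1 was lower, against 4.14% and 2.73% of all genes tested (6.87% in either direction). At an unadjusted p under 0.05 the count was 4 of 10, against 26.2% of all genes. Groups did not overlap for 3 of the 10 (2 higher, 1 lower), against 33.1% of all genes (17.2% higher, 15.9% lower). With DESeq2, Mcam passed as well, giving 1 higher and 2 lower, against 12.4% of the genes it tested. The median log2 fold change was 0.10 over the 10 genes and 0.01 over all genes tested.

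The total count per library was between 34176592 and 47956569. Values below are TMM-normalized CPM, read counts scaled to a common library size, and at these depths 3 counts are worth 0.0648 to 0.0883 CPM. Meis1 was counted 135325 to 157828 times in Meis1-OE libraries and 39 to 85 times in YFP-CTRL libraries, as the labels say. Libraries are called by the letter of their column, which is tied to no replicate number, and values are listed in the order of these letters. The 3 YFP-CTRL libraries differed far more among themselves than the 3 Meis1-OE libraries. Over 10222 tested genes with a mean of at least 5 CPM, the highest control library was at the median 1.37 times the lowest, against 1.12 times in Meis1-OE EC. A score of 15 proliferation genes (mean log2(CPM + 1)) ran from 4.41 (A) through 5.29 (B) to 6.46 (C) under YFP-CTRL, while Meis1-OE libraries all lay between 6.49 and 6.55. The score thus moved with the groups and within the controls.

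The sequences just upstream of Cd200 and Cd34, the genes whose RNA changed, and of Mcam, which also passed in DESeq2, are printed because these are the members on which the comparison turns. Each is the 250 bases before a transcript start given by RefSeq on build GRCm38.p6, the assembly that mm10 stands for in the submitters' processing notes. Capitals mark the letters TGACAG, the core of the motif that Meis proteins bind, or their reverse complement. Cd200 lies at chr16:45409054-45409303, minus strand, and this window overlaps the first bases of the gene's annotated span, since the start used lies just inside it. Cd34 lies at chr1:194938571-194938820, plus strand. Mcam lies at chr9:44134408-44134657, plus strand.
Cd200: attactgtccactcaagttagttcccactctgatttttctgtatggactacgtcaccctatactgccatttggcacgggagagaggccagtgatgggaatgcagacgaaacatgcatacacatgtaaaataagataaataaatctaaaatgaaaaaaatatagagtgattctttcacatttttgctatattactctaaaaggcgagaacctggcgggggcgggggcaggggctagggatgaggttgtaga
Cd34: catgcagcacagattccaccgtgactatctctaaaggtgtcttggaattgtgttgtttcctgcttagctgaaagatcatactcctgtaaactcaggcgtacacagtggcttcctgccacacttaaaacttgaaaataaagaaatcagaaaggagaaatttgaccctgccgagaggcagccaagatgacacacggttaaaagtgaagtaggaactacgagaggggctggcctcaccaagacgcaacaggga
Mcam: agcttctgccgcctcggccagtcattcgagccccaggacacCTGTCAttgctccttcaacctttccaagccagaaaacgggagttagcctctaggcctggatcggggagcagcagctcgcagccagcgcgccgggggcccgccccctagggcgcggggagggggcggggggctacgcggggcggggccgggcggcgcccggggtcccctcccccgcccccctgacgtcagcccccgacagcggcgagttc
The motif was absent from these windows of Cd200 and Cd34, and Mcam held 1 match on the minus strand beginning 209 bases before the start. In all, 9 of the 10 genes had a promoter entry, with 11 windows between them, and the missing one was Ly6a. The motif stood in 3 of these windows, those of Mcam, Itga2b and 1 of the 2 of Ly6c1, against 15.9% of all 32851 windows of this length. A match is a description of the letters and not a bound site, and its absence says nothing of sites elsewhere.

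Levels of different genes were compared per kilobase of exon, with exon lengths from an older mouse annotation by symbol. In YFP-CTRL EC, Cd34 stood highest at 235 ± 8.81 CPM per kb (SD, n = 3). It was followed by Mcam at 147 ± 63.2, Ly6a at 136 ± 96.7, Eng at 50.8 ± 19.2, Ly6c1 at 50.7 ± 31.6 and Emcn at 31.8 ± 8.80 CPM per kb. Every Cd34 control value was above every Mcam value but not above every Ly6a value, since Ly6a (235 CPM per kb) exceeded Cd34 (225 CPM per kb) in YFP-CTRL library C. From Mcam down to Emcn each gene overlapped with the next in the order. Cd200 was lower at 2.23 ± 1.27 CPM per kb and Prom1 lower again at 0.561 ± 0.0723, without overlap between these neighbours. The blood antigens came last, Itga2b at 0.351 ± 0.0945 and Spn at 0.139 ± 0.130 CPM per kb, with overlapping values. In Meis1-OE EC the order of the means differed at the top only, where Ly6a (168 ± 16.1 CPM per kb) stood above Cd34 (147 ± 0.292) and Cd34 above Mcam (76.4 ± 6.51) without overlap. Eng followed at 54.8 ± 0.988 CPM per kb, and Ly6c1 (37.3 ± 3.40) overlapped with Emcn (33.9 ± 1.97). Cd200 was at 9.94 ± 1.74 and Prom1 at 0.830 ± 0.0427 CPM per kb, and Itga2b (0.318 ± 0.135) overlapped with Spn (0.281 ± 0.0288).

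**Figure D1:**
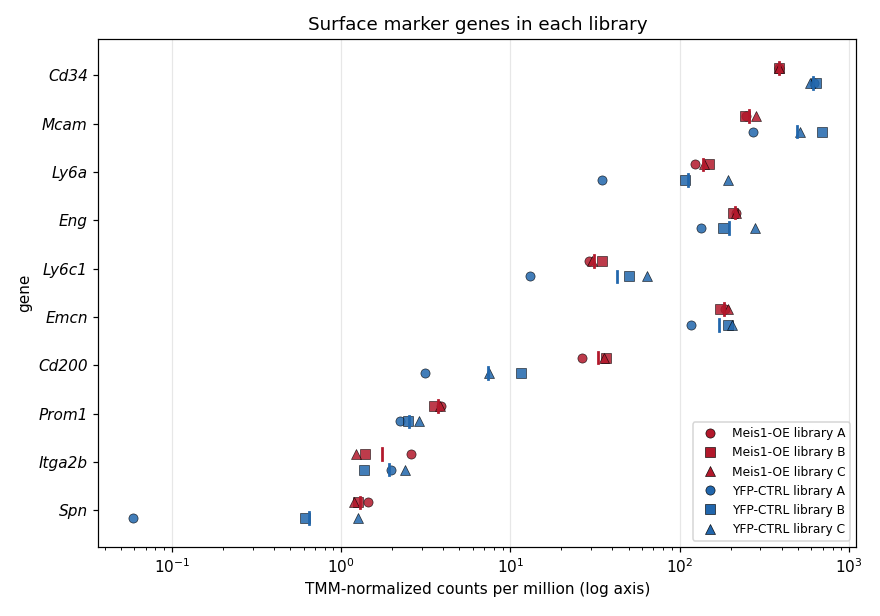
TMM-normalized CPM of each gene in each library on a log axis, with genes ordered by their YFP-CTRL level per kilobase; red marks are Meis1-OE libraries, blue marks YFP-CTRL libraries, shapes the library letters and short bars the group means. Cd200 lies to the right and Cd34 to the left in all 3 Meis1-OE libraries, and the blue marks of Ly6a, Ly6c1 and Spn are spread widely.

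CD200 is an immunoglobulin superfamily glycoprotein that restrains myeloid cells through its receptor. Its gene spans chromosome 16 from 45382111 to 45409060. Cd200 read 26.4, 36.9 and 35.8 CPM under Meis1-OE against 3.12, 11.5 and 7.50 CPM under YFP-CTRL. The lowest Meis1-OE library thus stood well above the highest control library. The mean was 33.0 ± 5.79 CPM against 7.39 ± 4.21 CPM (SD, n = 3 each), and the difference on the log2 scale was 2.16 (standard error 0.43, 95% interval 1.16 to 3.15, adjusted p = 0.0312, edgeR quasi-likelihood test). YFP-CTRL library C, whose proliferation score was nearest to that of the Meis1-OE libraries, had 7.50 CPM. Adding the score to the edgeR model as a covariate gave Cd200 a log2 fold change of 1.68 (adjusted p = 0.171). Cd200r1, which encodes the receptor, had no count in any library.

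CD34 is a sialomucin of vascular endothelium and of blood stem and progenitor cells, and a ligand of L-selectin. The gene spans chromosome 1 from 194938821 to 194961292. Cd34 read 385, 386 and 384 CPM under Meis1-OE against 619, 637 and 591 CPM under YFP-CTRL. Both groups were tight and far apart. The Meis1-OE values lay closer together than counting error would leave them, so their SD understates the spread. In Meis1-OE library A the count came to 425 CPM of the unscaled total (95% Wilson interval 418 to 431, counting error only). The mean was 385 ± 0.766 CPM against 616 ± 23.1 CPM (SD, n = 3 each), and the difference on the log2 scale was -0.68 (standard error 0.09, 95% interval -0.90 to -0.45, adjusted p = 0.0108, edgeR quasi-likelihood test). In the edgeR model that included the score, Cd34 stood at -0.64 (adjusted p = 0.0260). The controls differed by 1.08 times between the highest and the lowest library, less than any other of the 10 genes, so the wide spread of the control libraries did not extend to Cd34.

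The calls of Cd200 and Cd34 did not survive the loss of a Meis1-OE library. Without library A, B or C of that group, the adjusted p from edgeR was 0.0807, 0.135 and 0.126 for Cd200 and 0.0545, 0.0933 and 0.0858 for Cd34. In these fits 0 of the 10 genes passed, against 2.43%, 0.798% and 0.875% of all genes tested. The log2 fold changes themselves lay between 2.07 and 2.30 for Cd200 and between -0.68 and -0.67 for Cd34 in these fits. Without YFP-CTRL library A, B or C both genes passed, where 6.36%, 1.64% and 31.7% of all genes did. The edgeR adjusted p was 0.0176, 0.0492 and 0.0224 for Cd200 and 0.0163, 0.0462 and 0.00203 for Cd34. Without library B both were thus only just under the threshold. With the covariate 4.06% of all genes passed.

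**Figure D2:**
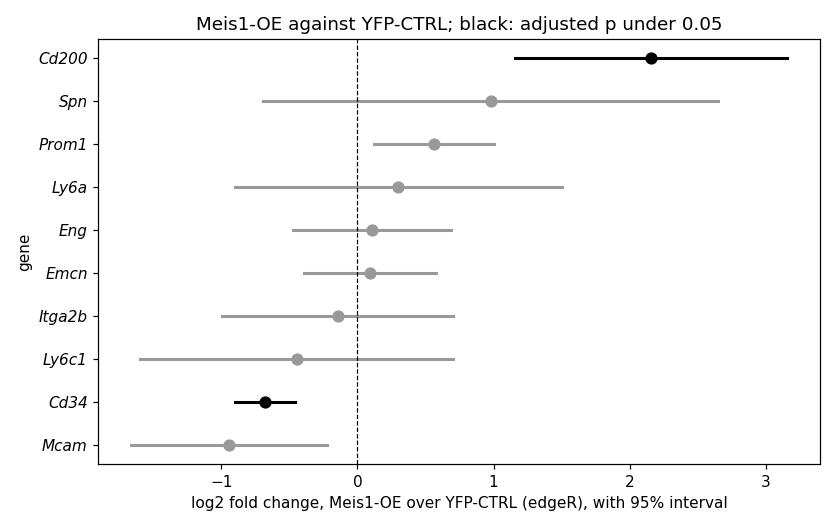
Log2 fold change of each gene in Meis1-OE over YFP-CTRL EC from edgeR, with bars for the 95% interval and black marks for an adjusted p under 0.05. Cd200 at 2.16 and Cd34 at -0.68 are black, and the intervals of Prom1 and Mcam lie on one side of 0 without passing the adjusted threshold.

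Among the other sialomucin-type genes, Emcn encodes endomucin, which is typical of venous and capillary endothelium, and Spn encodes CD43 of leukocytes and committed progenitors. Emcn (chromosome 3, 137341062 to 137431069) read 184, 172 and 193 CPM under Meis1-OE against 117, 194 and 204 CPM under YFP-CTRL. The Meis1-OE values lay inside the control range, and the log2 fold change was 0.09 (95% interval -0.39 to 0.58, edgeR adjusted p = 0.817). Spn (chromosome 7, 127123637 to 127145552) was rare, with 66, 57 and 55 counts under Meis1-OE against 2, 25 and 57 under YFP-CTRL. Only control libraries A and B stood below the Meis1-OE libraries. The 2 counts of library A come to 0.0585 CPM of its unscaled total (95% Wilson interval 0.0160 to 0.213, counting error only). The log2 fold change of Spn was 0.98 (95% interval -0.69 to 2.65, adjusted p = 0.421, edgeR). The value became 1.87 without YFP-CTRL library C, 0.46 without YFP-CTRL library A and -0.25 in the model with the score, so its size rested on single control libraries. Of the 4 other listed sialomucin genes (Podxl, Podxl2, Cd164 and Selplg), 3 were tested and 0 passed in edgeR, also 0 at an unadjusted p under 0.05, and the 3 tested had adjusted p-values of 0.55 or more in DESeq2. Their median log2 fold change was -0.20.

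Endoglin, encoded by Eng (chromosome 2, 32646595 to 32682669), is a co-receptor for TGF-beta family ligands. Eng read 214, 208 and 215 CPM under Meis1-OE against 133, 179 and 278 CPM under YFP-CTRL. The controls spread over both sides of a narrow Meis1-OE range. The log2 fold change was 0.11 (95% interval -0.47 to 0.69, edgeR adjusted p = 0.820), but -0.12 without YFP-CTRL library A and -0.41 once the score was a covariate. Acvrl1, the receptor that works with endoglin, was at 226 ± 20.0 CPM against 223 ± 34.1 CPM (SD, n = 3 each). Of the 11 listed genes whose products bind proteins of this group, 7 were tested. In edgeR 1 was lower, Lama4, against 2.73% of all genes tested. DESeq2, where 12.4% of all genes passed, also called Tgfbr2 higher (log2 fold change 0.70, adjusted p = 0.0401) and Sele lower (-0.69, adjusted p = 0.0158). Their adjusted p-values in edgeR were 0.0889 and 0.0603. Acvrl1, Bmpr2, Tgfbr1 and Itgb3 passed in neither. Lama4, a laminin chain of the vessel wall matrix that CD146 binds, had a log2 fold change of -1.75 (edgeR adjusted p = 0.0428). The call of Lama4 was lost without any single Meis1-OE library, without control library B (adjusted p up to 0.201), on library totals, with the covariate and with the column letter as a block.

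Mcam encodes CD146, an adhesion molecule of endothelium and of pericytes and smooth muscle. The gene spans chromosome 9 from 44134658 to 44142727. Mcam read 245, 242 and 281 CPM under Meis1-OE against 270, 692 and 513 CPM under YFP-CTRL. Control library A lay within the Meis1-OE range and controls B and C above it. The mean was 256 ± 21.8 CPM against 492 ± 212 CPM (SD, n = 3 each), which is a difference on the log2 scale of -0.94 (95% interval -1.66 to -0.22, edgeR adjusted p = 0.111 and 0.0308 from DESeq2). Without YFP-CTRL library A it was -1.25 (edgeR adjusted p = 0.0137), and without library B it was -0.61 with an adjusted p of 0.299. The summed level of 9 genes of smooth muscle, pericytes and fibroblasts was 16.2 to 17.9 CPM in Meis1-OE libraries against 35.0 to 54.4 CPM in the controls. Most of that sum was Pdgfra, at 11.7 to 11.9 CPM against 15.6 to 49.1 CPM, except in YFP-CTRL library C, where Acta2 was higher. Acta2 was at 0.993 to 3.33 CPM against 0.206 to 19.9 CPM. The pericyte receptor gene Pdgfrb had the other sign, at 2.49 ± 0.411 CPM against 1.70 ± 0.704 CPM (SD, n = 3 each; log2 fold change 0.55, edgeR adjusted p = 0.344), and Cspg4 was at 0.0656 to 0.507 CPM against 0.0660 to 0.147 CPM. Col1a1 reached at most 0.196 CPM and Myh11 at most 0.151 CPM in any library. Of the 3 tested genes of this list, 0 passed in edgeR, 1 had an unadjusted p under 0.05 and 1 passed in DESeq2 (Pdgfra), and their median log2 fold change was -1.47. Their part in the Mcam values was not tested.

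Prom1 encodes CD133, a pentaspan membrane protein of stem and progenitor cells. The gene spans chromosome 5 from 43993621 to 44102047. Prom1 read 3.87, 3.53 and 3.84 CPM under Meis1-OE against 2.24, 2.48 and 2.88 CPM under YFP-CTRL. Each Meis1-OE library was above each control library at a low level. The log2 fold change of 0.56 (95% interval 0.12 to 1.01, edgeR adjusted p = 0.118) did not pass with all 6 libraries. Without YFP-CTRL library C it was 0.66 (edgeR adjusted p = 0.0398), in a fit where 31.7% of all genes passed. Its deposited counts were not whole in any of the 6 libraries (departures above 0.01), as was also so for Cd34.

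Itga2b encodes CD41, the alpha chain that pairs with integrin beta3 on platelets and marks the first committed blood progenitors. The gene spans chromosome 11 from 102453297 to 102469883. The gene had 118, 63 and 57 counts under Meis1-OE against 67, 56 and 109 under YFP-CTRL. Meis1-OE library A and YFP-CTRL library C were the highest of their groups, and the groups overlapped. The log2 fold change was -0.14 (95% interval -0.99 to 0.70, edgeR adjusted p = 0.839), and it was -0.55 without Meis1-OE library A and 0.05 without Meis1-OE library C. Itgb3, the partner chain, averaged 353 ± 52.4 CPM under Meis1-OE and 252 ± 83.7 CPM under YFP-CTRL (SD, n = 3 each; edgeR adjusted p = 0.281). Of 8 megakaryocyte and platelet genes, 3 were tested and 1 was higher, against 4.14% of all genes tested. Gp9, a subunit of the platelet von Willebrand factor receptor, was at 35, 46 and 54 counts against 0, 2 and 8 counts (log2 fold change 3.56, edgeR adjusted p = 0.0290). The summed level of the 8 genes was 2.66 to 3.30 CPM in Meis1-OE EC and 1.74 to 2.59 CPM in YFP-CTRL EC, and Pf4 was at 0.379 ± 0.124 and 0.476 ± 0.288 CPM (SD, n = 3 each). Gp9 passed the filter on low counts only through its Meis1-OE libraries, so it entered the test because it was high in that group. The call of Gp9 was lost without any single Meis1-OE library, without control library B (adjusted p up to 0.135) and with the covariate (0.0774).

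Ly6a (Sca-1) and Ly6c1 are small GPI-anchored proteins of the Ly6 family, and Sca-1 is the classical antigen for sorting mouse blood stem cells. Both genes lie in a cluster on chromosome 15, Ly6a from 74994877 to 74998031 and Ly6c1 from 75044018 to 75048920, with 45986 bases between them. Reads can be shared within this family, and the counts of Ly6c1 were not whole in 2 libraries, so the values carry that uncertainty. Ly6a read 124, 150 and 139 CPM under Meis1-OE against 34.6, 108 and 193 CPM under YFP-CTRL. Ly6c1 read 29.1, 34.5 and 30.3 CPM under Meis1-OE against 13.0, 50.3 and 64.5 CPM under YFP-CTRL. For both genes the Meis1-OE values lay inside a control range in which the highest library was 5.57 times (Ly6a) and 4.95 times (Ly6c1) the lowest. The log2 fold change was 0.30 for Ly6a (95% interval -0.90 to 1.5, adjusted p = 0.754) and -0.45 for Ly6c1 (95% interval -1.60 to 0.70, adjusted p = 0.605), both from edgeR. Without YFP-CTRL library A, Ly6a was at -0.14 and Ly6c1 at -0.89 with an adjusted p of 0.0224. With the covariate they were at -0.72 (adjusted p = 0.156) and -1.40 (edgeR adjusted p = 0.0838).

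Elsewhere in the Ly6 family, 13 of the 14 other listed genes were in the table and 7 were tested. In edgeR 3 were higher and 0 were lower, against 4.14% and 2.73% of all genes tested. Their median log2 fold change of 0.99 was the value of Ly6c2 (12, 15 and 13 against 1, 6 and 11 counts, edgeR adjusted p = 0.308). It was the same with Ly6d set at its lower bound. Some of the genes tested, named below, passed the filter because they were high in Meis1-OE EC. The median is therefore not comparable with the 0.01 for all genes tested. Ly6d, known as an early B lineage and epithelial antigen, had 51, 100 and 92 counts in Meis1-OE EC and none in any YFP-CTRL library. Against a floor of 3 counts per control library it was at least 23.3-fold higher (edgeR adjusted p = 0.00747). Psca, the prostate stem cell antigen, was at 5.90 ± 2.27 CPM against 0.423 ± 0.416 CPM (SD, n = 3 each), which is a difference on the log2 scale of 3.74 (edgeR adjusted p = 0.0206). Lynx1, a modulator of nicotinic receptors, was at 30.3 ± 0.423 CPM against 16.3 ± 3.89 CPM (log2 fold change 0.89, edgeR adjusted p = 0.0367). Ly6d, Psca, Ly6f (85, 91 and 86 against 0, 10 and 29 counts) and Ly6c2 passed the filter on low counts only through their Meis1-OE libraries. They thus entered the test because they were high in that group. None of them was tested with at least 10 counts in every library. Ly6d passed in all 6 fits that left out a library, under the same limit. Psca did not pass without Meis1-OE library B or C or control library B (adjusted p up to 0.0969), and Lynx1 did not pass without any single Meis1-OE library, without YFP-CTRL library B (up to 0.171), with the covariate or with the block. Ly6e, the most abundant in CPM of these other members, was at 205 ± 8.79 CPM against 147 ± 51.0 CPM (SD, n = 3 each; edgeR adjusted p = 0.244).

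**Figure D3:**
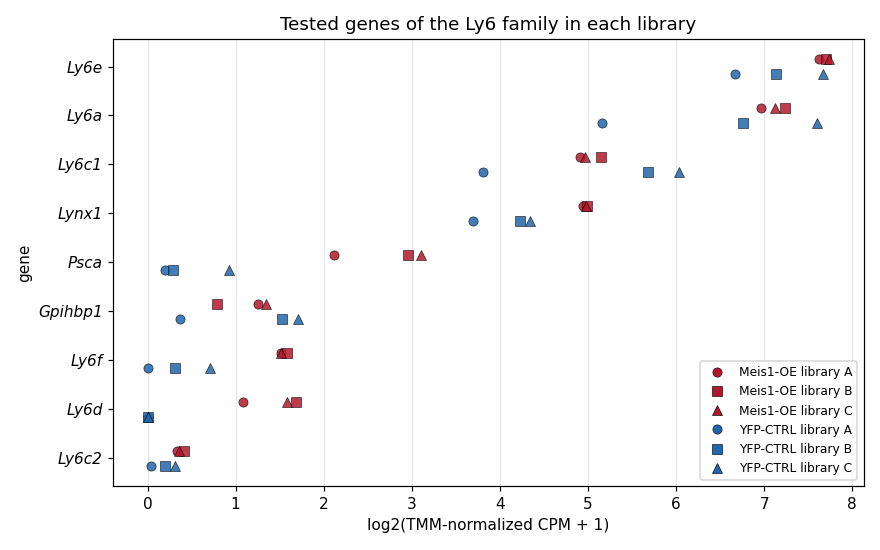
Log2(CPM + 1) of the tested Ly6 family genes in each library, with red marks for Meis1-OE, blue marks for YFP-CTRL and shapes for library letters. The blue marks of Ly6a and Ly6c1 spread on both sides of the red ones, whereas Ly6d has no count in the controls and Psca and Lynx1 are higher in all 3 Meis1-OE libraries.

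The differences among control libraries had a common form in these genes. YFP-CTRL library A was the lowest and library C the highest for 6 of the 10 (Eng, Ly6a, Ly6c1, Prom1, Emcn and Spn), a pattern held by 25.6% of all genes tested. Library A was the lowest control for 8 of the 10 (36.6% of all genes), the exceptions being Cd34 and Itga2b. The proliferation score had the same order of libraries. All 3 Meis1-OE libraries lay inside the control range for 4 of the 10 genes (Eng, Ly6a, Ly6c1 and Emcn), as they did for 25.2% of all genes. When YFP-CTRL library A was left out, 1 gene passed upward (Cd200) and 3 downward (Cd34, Mcam and Ly6c1), against 6.36% of all genes tested. When library C was left out, 2 passed upward (Cd200 and Prom1) and 1 downward (Cd34), against 31.7%. Between these fits the log2 fold change of Ly6a moved from -0.14 to 0.93, and that of Eng from -0.12 to 0.43.

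**Figure D4:**
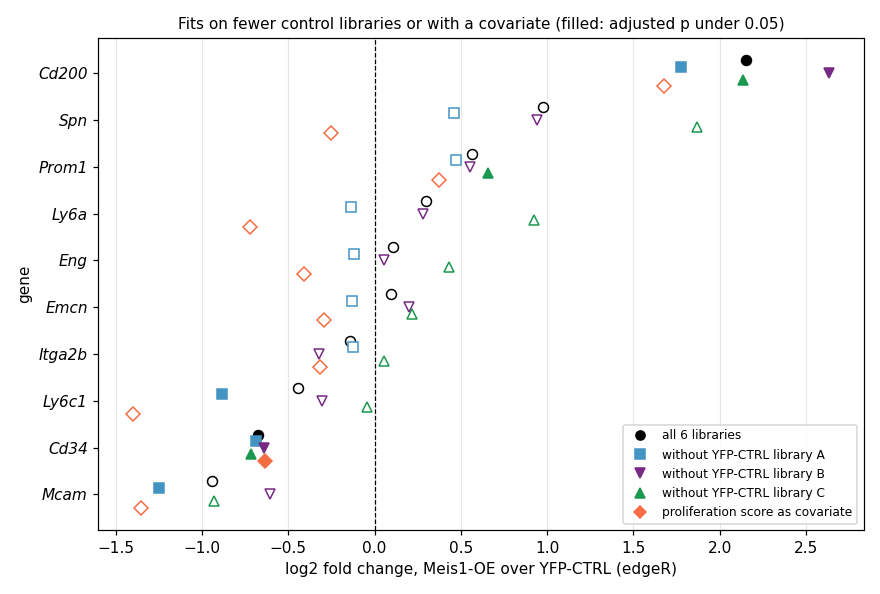
Log2 fold change of each gene with all 6 libraries, without each YFP-CTRL library and in the model holding the score as covariate, with filled marks for an adjusted p under 0.05 in edgeR. The marks of Cd34 fall together between -0.72 and -0.64, those of Cd200 stay above 1.6, and those of Ly6a, Eng, Emcn, Spn and Itga2b lie on both sides of 0.

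The label of the cells was checked against 12 defining endothelial genes, all of which were tested. Their summed level was 4156 to 5171 CPM in Meis1-OE EC and 4875 to 6996 CPM in YFP-CTRL EC, and their median log2 fold change was -0.02. This median covers genes on both sides. Groups did not overlap for 3 genes that were higher and 3 that were lower, against 17.2% and 15.9% of all genes tested. In DESeq2 5 of the 12 passed (Vwf, Clec14a, Tek, Kdr and Cdh5), against 12.4% of all genes it tested. Kdr, a VEGF receptor, was at 319 ± 53.8 CPM against 751 ± 293 CPM (SD, n = 3 each; log2 fold change -1.23, adjusted p = 0.0504 in edgeR and 0.00134 in DESeq2). Clec14a had a log2 fold change of 1.38 (adjusted p = 0.0702 in edgeR and 0.00373 in DESeq2). In edgeR 1 gene was higher and 1 lower, against 4.14% and 2.73% of all genes tested. Vwf, which encodes von Willebrand factor, rose by a log2 fold change of 3.12 (adjusted p = 0.0120), and Tek, the angiopoietin receptor, fell by 0.78 on the log2 scale (adjusted p = 0.0351), both from edgeR. The call of Tek was lost without any single Meis1-OE library or control library B (adjusted p up to 0.173) and with the covariate, and that of Vwf without Meis1-OE library B or C or YFP-CTRL library B (up to 0.0753) and with the covariate. Pecam1 was at 910 ± 100.4 CPM against 984 ± 199 CPM, and Cdh5 was at 1316 ± 135 CPM against 2143 ± 436 CPM (SD, n = 3 each). Lyve1, also carried by lymphatic endothelium, was lower (log2 fold change -1.84, edgeR adjusted p = 0.0301, up to 0.149 without a Meis1-OE library and 0.142 with the covariate). It was 1 of 2 tested genes of 4 lymphatic markers, whose sum was 178 to 187 against 280 to 558 CPM. The other was Flt4, at 103 ± 2.76 against 99.5 ± 50.5 CPM (SD, n = 3 each; log2 fold change 0.05, edgeR adjusted p = 0.948), so the median of -0.90 is only the midpoint of these 2 genes. Pdpn had no count and Prox1 at most 0.0438 CPM in any library.

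Of 8 macrophage genes, 4 had no count in any library (C1qa, C1qb, Tyrobp and Adgre1), and the summed level of 69.8 to 106 CPM against 65.1 to 140 CPM was nearly all Cd68. Of the 3 tested, 0 passed in edgeR and 0 in DESeq2. An unadjusted p under 0.05 in edgeR was held by 2, against 26.2% of all genes tested, and the median was 1.63. That median rests on rare genes, Csf1r (15, 26 and 18 against 1, 4 and 12 counts) and Lyz2 (6, 40 and 37 against 8, 8 and 7 counts). It is the value of Csf1r, which passed the filter on low counts only through its Meis1-OE libraries. The abundant Cd68 had a log2 fold change of -0.23. The other antigens of the study's gates (Pecam1, Cdh5, Cd44, Kit, Ptprc, Cd27 and Notch4) had 5 of 7 tested and 0 past the threshold in edgeR, with 2 at an unadjusted p under 0.05, 2 in DESeq2 (Cdh5 and Kit) and a median of -0.11. Cd44 was at 227 ± 15.6 against 164 ± 47.2 CPM, Notch4 at 315 ± 24.0 against 309 ± 139.8 CPM and Kit at 3.42 ± 0.693 against 7.04 ± 3.39 CPM (SD, n = 3 each), and Ptprc reached at most 0.0880 CPM. Of 13 antigens used to sort blood stem and progenitor cells, 6 were tested, with a median of -0.01. Cd38, an ectoenzyme, was higher (46.9 ± 8.45 against 18.7 ± 4.46 CPM, adjusted p = 0.0179), and Procr, the endothelial protein C receptor, was lower (262 ± 29.4 against 657 ± 260 CPM, adjusted p = 0.0416), both from edgeR with n = 3 each. Cd38 did not pass without Meis1-OE library B or C or control library B (adjusted p up to 0.0971) or with the covariate, and Procr did not without any single Meis1-OE library, without YFP-CTRL library B (up to 0.191) or with the block. The 15 proliferation genes had 0 past the threshold in edgeR, 2 at an unadjusted p under 0.05, 1 in DESeq2 (Rrm2) and a median of 0.93.

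Annotated neighbours may limit some values. Cd34, Ly6a and Emcn each overlap 1 other annotated gene, a long noncoding RNA, and Eng overlaps 3, among them the coding gene Fpgs. The overlap is of whole annotated spans, introns included, and overlap of exons was not checked. Nothing states that reads were counted by strand, so reads from any stretch that such exons share cannot be told apart. The remaining 6 genes overlap no other gene in the RefSeq annotation of GRCm38.p6.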

How the data were processed

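Ribodepleted RNA-seq was made of aortic EC carrying the Meis1-OE or YFP-CTRL vector (3 libraries each). The table that the authors deposited holds estimated counts for each gene, not normalized, and the aligner and counting tool are not given in the sources used here. The submitters' processing notes name build mm10. The deposited counts were rounded to whole numbers, and all 6 columns were assigned to a group by name.

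Counts were fitted in R 4.3.3 with edgeR 4.0.16 (TMM factors, filterByExpr, quasi-likelihood test, Benjamini-Hochberg adjustment), with DESeq2 1.42.0 as an alternative. Standard errors were derived from the F statistic, and 95% intervals from these with the fit's degrees of freedom. Totals ran from 34176592 to 47956569 counts, and intervals on counts cover counting error only. The program was tested on simulated counts. Promoter and gene positions came from RefSeq on GRCm38.p6. Exon lengths came from GENCODE vM1, whose build NCBIM37 differs, and no coordinates were taken from it. The figures used matplotlib 3.10.9.

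The members and the 12 other lists were chosen with earlier results of these data known. Genes named were every member, every other listed gene past the threshold, fixed defining markers and, for members past the threshold, the 2 genes most alike (mean of at least 5 CPM). Some others were chosen after their values were seen: Podxl, Podxl2, Cd164, Selplg, Pdgfra, Pdgfrb, Cspg4, Kdr, Clec14a, Flt4, Acta2, Col1a1, Myh11, Ly6e, Ly6c2, Ly6f, Cd200r1, Cd68, Csf1r, Lyz2, Tgfbr2, Sele, Bmpr2, Tgfbr1, Rrm2, Prox1 and Pdpn, and the genes at 0. The result of 1 of the lists, with its gene past the threshold, is not reported here. The alternatives are described in the closing section.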

Additional observations from a re-analysis of the deposited data

How the results depend on the processing

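Under 14 alternatives, 139 values of the 10 genes were computed (Spn could not be tested with at least 10 counts in every library). Of these, 118 kept their direction and side of the threshold, 7 lost the call, 4 gained one and 10 in 5 genes turned direction. None of the 10 was a value past the threshold. The cause was not tested. Libraries are named by column letter.

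Counts of members called were 1 higher and 1 lower. They were 1 and 2 with DESeq2, 0 and 1 when the score was a covariate, and 0 and 0 at an adjusted p under 0.01. Leaving out single libraries gave 0 to 2 higher and 0 to 3 lower. Of all genes, 665 were higher and 438 lower. Counts were 1048 and 179 on library totals, 1128 and 1115 with DESeq2, 168 and 40 at an adjusted p under 0.01, and 1138 and 1073 at an adjusted p under 0.1. With the covariate 360 were higher, and with the replicate block 189 were lower. Single libraries left out gave 115 to 2717 higher and 16 to 2498 lower, the lowest without Meis1-OE library B and the highest without YFP-CTRL library C. On library totals, the median of all genes shifted to 0.15, and relative to that shift Cd200 (2.31) and Cd34 (-0.53) kept their direction and call.

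Leaving out single libraries gave log2 fold changes of 1.77 to 2.63 for Cd200, -0.72 to -0.64 for Cd34, -0.12 to 0.43 for Eng, -0.14 to 0.93 for Ly6a, -0.89 to -0.043 for Ly6c1, 0.47 to 0.66 for Prom1, -1.25 to -0.61 for Mcam, -0.13 to 0.22 for Emcn, 0.46 to 1.87 for Spn and -0.55 to 0.05 for Itga2b. The Itga2b values above 0 were 0.052 and 0.054, without Meis1-OE library C and YFP-CTRL library C, and it was 0.0089 on library totals. With the covariate, values were 1.68 for Cd200, -0.41 for Eng, -0.72 for Ly6a, -0.29 for Emcn and -0.25 for Spn. Mcam was at -0.96 with DESeq2.

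Column letters served as a replicate block. Deviations of same-letter libraries from their group means correlated at 0.24, 0.19 and 0.08 for A, B and C. Letters C and B of Meis1-OE and YFP-CTRL correlated at 0.25, and all other unlike letters between -0.30 and -0.028. These values do not settle whether the letters are pairs. The labels tie the letters to no replicate, so they were not taken as pairs. The block changed no call of a member. Of the 11 other listed genes called, 11 passed in the same direction without YFP-CTRL library A or C and with DESeq2, 1 without Meis1-OE library B or C, 3 with the covariate and 7 with the block. With at least 10 counts in every library 8 passed, and Ly6d, Psca and Gp9 were removed by that filter and not tested. These checks of the 11 genes were added after the data were seen. Spn and Itga2b, at 2 to 118 counts per library, are limited by depth.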

Other observations

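Within a library, the ratio of 2 genes does not depend on normalization. The ratio of Ly6a to Ly6c1 counts was 4.25, 4.34 and 4.57 in Meis1-OE EC, against 2.65, 2.14 and 2.99 in YFP-CTRL EC (libraries in letter order). The mean ratio was 4.39 ± 0.165 against 2.59 ± 0.428 (SD, n = 3 each). The ratio of Mcam to Emcn was 1.33, 1.40 and 1.45 under Meis1-OE against 2.30, 3.56 and 2.51 under YFP-CTRL. Both pairs were chosen after their values were seen, because their ratios separated the groups, so the ratios are a description with no test.

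Over the 6 libraries, the genes with levels most like those of Cd200, by Pearson correlation of log2(CPM + 1), were Spp1 (r = 0.997), which encodes osteopontin, and Ppard (r = 0.996), a nuclear receptor. Those most like Cd34 were Lyar (r = 0.9998) and Lilrb4a (r = 0.999), the latter of a multigene family whose reads may be shared. Correlations above 0.95 were common, with 218 genes for Cd200 and 328 for Cd34 of 10221 compared. The libraries fall into 2 groups, so these values describe likeness and carry no test.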
